A study of Mus musculus with 3 samples.

Results

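The transcripts described here are 7 secreted ligands of the bone morphogenetic protein (BMP) family (Bmp2, Bmp3, Bmp4, Bmp5, Bmp6, Bmp7 and Gdf5) and 3 secreted antagonists that bind BMPs outside the cell (Grem1, Nog and Chrdl1), 10 of the 32285 genes listed in the count matrices. They were chosen by symbol, and their unique molecular identifier (UMI) counts were followed across cells gated by lineage markers, separately in each library. All 3 libraries were single-cell RNA libraries of 1 group, Alcam+Sca-1- bone-lining cells (BLCs) of wild-type (WT) mice. Femora, tibias and iliac bones were flushed of marrow, the remaining bone was digested with collagenase, and Alcam+ cells lacking CD45, Ter119 (blood lineages), CD31 (endothelium) and Sca-1 were sorted. The labels name the tissue as bone marrow and give no age, sex or number of mice, no treatment and no second group, so every comparison below is between kinds of cell inside the same libraries. The libraries held 2476, 6363 and 9393 cells after filtering (replicates 1, 2 and 3), with medians of 5614, 9704 and 5814 UMIs per cell.

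BMPs are dimeric ligands that assemble type I and type II serine/threonine kinase receptors, which phosphorylate Smad1, Smad5 and Smad8 and so switch on targets such as the Id genes. They were first known for inducing cartilage and bone, and in the skeleton they act in joint formation, in the growth plate and in osteoblast differentiation. Antagonists of the noggin, chordin and gremlin kinds bind the ligands and keep them from the receptors, so a tissue's BMP activity depends on both sides. In bone marrow, Grem1 and Cxcl12-abundant reticular (CAR) cells are known from work on skeletal stem cells and on the niche of blood stem cells.

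Cells were placed in 14 gates by lists of marker genes that hold no BMP gene and no gene of the BMP pathway list used below. Of these, 10 gates held mesenchymal cells. CAR-like cells (Cxcl12, Lepr, Adipoq, Foxc1, Ebf3) numbered 586, 79 and 103 in replicates 1 to 3, and osteoblast-like cells (Bglap, Bglap2, Ifitm5, Dmp1, Smpd3) numbered 37, 342 and 482. Growth plate chondrocyte-like cells (Col2a1, Matn3, Col9a1, Prkg2, Ucma, Fgfr3) numbered 1584 and 1791 in replicates 2 and 3 and only 3 in replicate 1, where they were not used. Superficial cartilage-like cells (Prg4, Cilp, Cilp2) were the most numerous gate, with 441, 1452 and 2562 cells. The smaller gates were tendon-like (Tnmd, Scx, Mkx, Kera, Mfap4), fibroblast-like (Cd34, Clec3b, Igfbp6, Pi16, Dpt) and, in replicate 1 alone, mural-like cells (Myh11, Acta2, Rgs5, Tagln, Notch3). A further 3 gates are called by their genes, namely a Lef1 gate (Lef1, Notum, Sfrp5), a Wif1 gate (Wif1, Cytl1, Myoc) and a Col10a1 gate (Col10a1, Ihh, Panx3, Mef2c).

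The sort was checked against its own genes. Alcam transcripts were found in 12.1%, 10.7% and 7.31% of cells of replicates 1, 2 and 3 (exact binomial 95% intervals 10.8% to 13.4%, 9.97% to 11.5% and 6.80% to 7.86%). The transcript was thus not detected in most cells at this depth. Ly6a, which encodes Sca-1, was found in 9.98%, 5.66% and 3.22%. Leukocyte and erythroid genes also marked 277, 163 and 283 cells in spite of the CD45 and Ter119 depletion. This haematopoietic gate serves as the comparison level, from cells not expected to make BMPs; the source of its UMIs was not tested. Its 2 parts were not alike for Bmp2, which was at 23.1, 14.9 and 15.1 CPM in erythroid and 0.704, 3.48 and 7.77 CPM in leukocyte cells. Between libraries, 5 to 28 cell barcodes were shared by a pair. Replicate 1 stood apart in its make-up, holding most CAR-like cells and almost no growth plate cells. Its superficial gate carried 554 CPM (UMIs scaled to 1000000 UMIs of the gate) of Col2a1 against 8907 and 8511 CPM in replicates 2 and 3. Levels are given below in CPM for replicates 1, 2 and 3 in that order, with the mean ± SD over libraries, and are compared between gates and not between genes, since capture at the 3′ end differs from gene to gene.

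**Figure D1:**
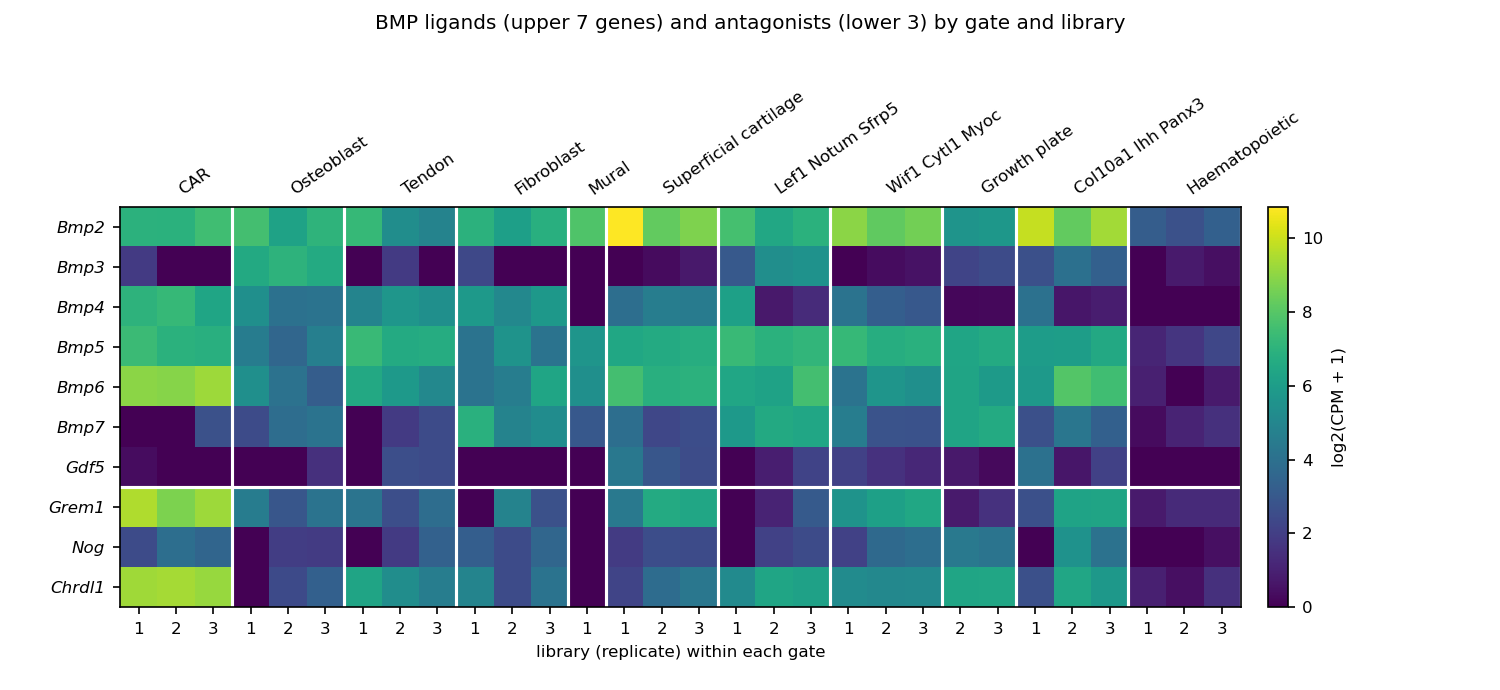
Heat map of log2(CPM + 1) for the 7 ligands and 3 antagonists (vertical axis) in each gate and library (horizontal axis, replicate number within a gate). Bmp6, Grem1 and Chrdl1 were brightest in the CAR gate, Bmp3 in the osteoblast gate, Bmp2 in the superficial and Col10a1 gates, and the haematopoietic gate on the right stayed dark, at no more than 9.0 CPM for any gene.

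The genes lie at 10 places of the genome (GENCODE annotation of GRCm38, the assembly of mm10). Of the ligands, Bmp2 is at chr2:133552159-133562885, Bmp3 at chr5:98854415-98884396, Bmp5 at chr9:75775364-75900310 and Bmp6 at chr13:38345107-38500302, all on the plus strand. Bmp4 (chr14:46383520-46390669), Bmp7 (chr2:172868012-172940321) and Gdf5 (chr2:155941023-155945367) are on the minus strand. So are the antagonists Grem1 (chr2:113746164-113758646), Nog (chr11:89300638-89302332) and Chrdl1 (chrX:143285674-143394262). Bmp4, Bmp5, Bmp6 and Gdf5 overlap annotated genes on the other strand that are also in the count matrices, and how the counting handled strand there is not given in the sources used here.

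The CAR gate had the highest mean levels of Bmp4, Bmp6, Grem1 and Chrdl1, but it held most of their UMIs in replicate 1 alone. Its shares in replicates 1 to 3 were 72.8%, 13.2% and 6.08% of the Bmp4 UMIs and 90.9%, 8.63% and 9.18% of the Grem1 UMIs. In replicates 2 and 3 the superficial gate held 48.5% and 57.6% of the Bmp4 UMIs and 48.4% and 45.3% of the Grem1 UMIs. Bmp6, an osteogenic ligand that also acts on the liver as a regulator of iron through hepcidin, was at 503, 476 and 605 CPM in CAR-like cells (528 ± 67.9, n = 3). The next gate was the Col10a1 gate at 57.0, 249 and 185 CPM, and the ranges of the 2 gates did not overlap. A Bmp6 UMI was found in 73.0% ± 4.79 (SD, n = 3) of CAR-like cells and in 0.599% of haematopoietic cells, although the latter were the deeper (median UMIs 10247, 16665 and 9197 against 5924, 6472 and 3812). With every cell thinned to 2000 UMIs the CAR share was 53.5% ± 6.45.

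Bmp4, a ligand with roles in mesoderm and limb patterning, was at 130, 152 and 83.3 CPM in the CAR gate (122 ± 35.1). The fibroblast gate followed at 58.3, 32.5 and 54.5 CPM, below every CAR value, and its range overlapped that of the tendon gate at 28.8, 51.4 and 41.4 CPM. Of the other gates, the growth plate held almost none, with 4 UMIs in 1584 cells and 3 UMIs in 1791 cells, and haematopoietic cells held 0 UMIs, which allows 0.702, 1.08 and 1.08 CPM (3 counts). One Lef1 value stood out, 71.3 CPM in replicate 1 (exact Poisson 95% interval 34.2 to 131), but it came from 10 UMIs in 2 of 25 cells, while replicates 2 and 3 of that gate were at 0.658 and 1.54 CPM.

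Grem1 (gremlin 1), an antagonist that binds Bmp2 and Bmp4 and marks skeletal stem and stromal cells, was at 756, 416 and 607 CPM in CAR-like cells (593 ± 170). No other gate came near: the Wif1 gate was at 46.5, 70.5 and 87.0 CPM and the superficial gate at 19.7, 97.1 and 83.6 CPM, and these ranges overlapped each other. Cells with a Grem1 UMI made up 68.9% ± 4.10 of the CAR gate (51.5% ± 7.65 after thinning) and 1.41% of haematopoietic cells. Chrdl1 (chordin-like 1) was the steadiest of the 4, at 628, 666 and 583 CPM (626 ± 41.6), with a UMI in 82.0% ± 3.82 of cells. Growth plate cells came next for Chrdl1, at 81.2 and 84.1 CPM, and the mural gate of replicate 1 held 0 UMIs of either antagonist.

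In CAR-like cells a ligand and an antagonist were often detected in the same cell. Bmp6 and Grem1 were both detected in 54.7% ± 3.79 of cells (SD, n = 3), and neither in 12.8% ± 4.17. Grem1 and Chrdl1 were both detected in 61.5% ± 6.24, and Bmp4 and Grem1 in 27.9% ± 10.8. Counting any of the 7 ligands with any of the 3 antagonists, 82.1% ± 2.60 of CAR-like cells held both, against 55.1% ± 9.35 of growth plate cells (n = 2), 5.08% ± 2.56 of fibroblast-like cells and 1.03% ± 1.02 of osteoblast-like cells. These shares rise with depth: in replicate 1, CAR-like cells with both Bmp6 and Grem1 had a median of 6745 UMIs, against 3818.5 in those with neither. The gates also differed in depth, with medians of 5047, 2622 and 1653 UMIs in osteoblast-like cells and 18574 and 10372 in growth plate cells. The shares were not thinned to a common depth or set against those of independent detection. They are given as descriptions, without a test.

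A promoter sequence was available from RefSeq for 4 of the 10 genes (build GRCm38.p6), 250 bases before to 50 after the start of transcription. They are shown because 3 of the 4 genes, Bmp4, Bmp6 and Grem1, were highest in the CAR gate, whereas Bmp5 was spread over many gates. Capitals mark a GC box (GGGCGG, or CCGCCC for the other strand) or a CCAAT box, the only motifs found among those searched. Bmp4 lies at chr14:46390620-46390919 (minus strand, 64.0% G and C), Bmp5 at chr9:75775115-75775414 (plus strand, 43.3%), Bmp6 at chr13:38345466-38345765 (plus strand, 69.3%) and Grem1 at chr2:113758599-113758898 (minus strand, 70.7%). The Bmp6 window is set on a start of transcription 609 bases inside the gene as annotated above, so it is not the sequence before that annotated start.
Bmp4: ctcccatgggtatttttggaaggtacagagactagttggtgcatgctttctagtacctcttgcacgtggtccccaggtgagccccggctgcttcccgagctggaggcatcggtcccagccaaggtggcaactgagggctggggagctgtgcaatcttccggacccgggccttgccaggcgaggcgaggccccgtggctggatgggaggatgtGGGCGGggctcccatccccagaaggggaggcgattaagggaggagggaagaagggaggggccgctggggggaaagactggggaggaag
Bmp5: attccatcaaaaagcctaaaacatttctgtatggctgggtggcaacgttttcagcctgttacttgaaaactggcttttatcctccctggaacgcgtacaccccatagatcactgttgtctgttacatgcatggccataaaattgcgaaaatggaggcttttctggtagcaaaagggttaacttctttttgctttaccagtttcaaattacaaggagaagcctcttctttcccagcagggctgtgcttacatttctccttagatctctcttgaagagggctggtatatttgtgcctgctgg
Bmp6: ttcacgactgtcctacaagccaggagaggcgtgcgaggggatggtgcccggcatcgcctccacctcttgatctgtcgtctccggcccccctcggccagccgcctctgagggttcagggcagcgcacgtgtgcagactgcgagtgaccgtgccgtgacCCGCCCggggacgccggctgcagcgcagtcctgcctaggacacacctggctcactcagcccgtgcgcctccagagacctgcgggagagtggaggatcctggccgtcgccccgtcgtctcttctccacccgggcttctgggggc
Grem1: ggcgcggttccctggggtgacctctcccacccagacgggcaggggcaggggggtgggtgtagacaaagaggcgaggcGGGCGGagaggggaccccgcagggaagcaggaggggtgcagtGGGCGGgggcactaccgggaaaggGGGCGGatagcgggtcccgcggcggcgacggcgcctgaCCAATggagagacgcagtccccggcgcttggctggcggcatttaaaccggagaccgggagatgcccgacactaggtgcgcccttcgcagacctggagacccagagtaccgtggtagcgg
The median promoter of the 32851 in the table had 52.7% G and C. The Bmp5 window held none of the motifs, the Bmp4 and Bmp6 windows 1 GC box each, and the Grem1 window 3 GC boxes and 1 CCAAT box. Motifs were searched on both strands, and a GC box was present in 35.7% and a CCAAT box, whose letters are its name, in 37.4% of all promoters of this length. The palindromic EBF motif, a forkhead motif (GTAAACA), a SOX motif (ACAATGG), a RUNX motif (TGTGGTT), a BMP-responsive SMAD motif (TGGCGCC) and a TATA box (TATAAA) were in none of the 4 windows. They were in 0.904%, 3.65%, 3.66%, 5.27%, 4.03% and 13.6% of all promoters. No motif searched contains another. A match or its absence in these letters says nothing of a factor's binding.

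Against CAR-like cells, the osteoblast gate gave calls for 7 of the 10 genes, 2 higher and 5 lower (edgeR quasi-likelihood test with library as a block, adjusted p under 0.05 over 13959 genes), where 27.5% of all genes tested were called (14.3% higher, 13.2% lower). Grem1 was lower in osteoblast-like cells by a log2 fold change of -5.33 (SE 0.57, adjusted p = 1.36e-08), Chrdl1 by -6.30 (SE 0.52, adjusted p = 7.46e-11) and Bmp6 by -4.55 (SE 0.53, adjusted p = 6.51e-08). Lower too were Bmp5, at -2.41 (SE 0.30, adjusted p = 1.97e-07), and Bmp4, at -2.14 (SE 0.46, adjusted p = 0.000643). The Bmp4 call was lost without replicate 2 (adjusted p = 0.176) and without replicate 3 (adjusted p = 0.101). Bmp2 did not pass the threshold, at 123, 122 and 183 CPM in the CAR gate and 196, 75.3 and 131 CPM in the osteoblast gate (log2 fold change 0.31, SE 0.38, adjusted p = 0.6).

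The gene that marked osteoblast-like cells was Bmp3. It encodes osteogenin, a family member abundant in bone matrix and known to oppose the osteogenic BMPs. Its levels were 95.5, 126 and 97.9 CPM in the osteoblast gate (107 ± 17.2, n = 3), against 2.57, 0 and 0 CPM in the CAR gate, where a count of 0 allows 6.0 and 8.06 CPM in replicates 2 and 3. The log2 fold change was 5.80 (SE 0.45, adjusted p = 1.37e-11), and 24.3% ± 6.86 of osteoblast-like cells held a UMI against 0.322% of haematopoietic cells, which were deeper. Only the Lef1 gate came near, at 7.13, 40.4 and 45.2 CPM (30.9 ± 20.7), below every osteoblast value. Its replicate 1 value is 1 UMI in 25 cells (exact Poisson 95% interval 0.18 to 39.7 CPM). Bmp7 was also called higher than in CAR-like cells (adjusted p = 9.06e-05), at 4.55, 13.9 and 16.5 CPM against 0, 0 and 5.37. Both CAR UMIs were in replicate 3, where the ratio was 3.06 with a counting interval of 0.734 to 27.2, so within that library the difference was not larger than counting error. The call stayed past the threshold with each library left out (adjusted p = 0.00253 to 0.0117).

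The same antagonists set the CAR gate apart from the tendon and fibroblast gates. Tendon-like cells gave 4 calls of 10, all lower, where 20.2% of genes were called (9.07% higher, 11.2% lower): Grem1 (log2 fold change -5.80, SE 0.65), Chrdl1 (-3.67, SE 0.43), Bmp6 (-3.07, SE 0.48) and Bmp4 (-1.62, SE 0.48), with adjusted p of 4.42e-08, 8.71e-08, 1.34e-05 and 0.0139. The Bmp4 call was again lost without replicate 2 or 3 (adjusted p = 0.247 and 0.21). Bmp5 was at 164, 97.7 and 106 CPM in tendon-like cells and 168, 122 and 116 CPM in CAR-like cells (log2 fold change -0.20, SE 0.25, adjusted p = 0.655). Bmp2 missed the threshold too, at 153, 38.6 and 27.6 CPM (log2 fold change -1.08, SE 0.43, adjusted p = 0.0812), and passed it without replicate 1 (log2 fold change -2.12, adjusted p = 0.000349).

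Fibroblast-like cells gave 5 calls of 10, 1 higher and 4 lower, where 18.3% of genes were called (8.2% higher, 10.1% lower). Grem1 (log2 fold change -5.94, SE 0.71, adjusted p = 2.05e-07), Chrdl1 (-5.26, SE 0.55, adjusted p = 1.47e-08), Bmp6 (-3.85, SE 0.56, adjusted p = 5.26e-06) and Bmp5 (-2.44, SE 0.36, adjusted p = 8.13e-06) were lower. The gene that was higher was Bmp7, a ligand required for kidney and eye development, at 117, 27.9 and 38.1 CPM against 0, 0 and 5.37 CPM in CAR-like cells (adjusted p = 2.03e-06, and 0.000167 to 0.00721 with a library left out). In replicate 3, the only library with CAR UMIs of Bmp7, the ratio was 7.1 with a counting interval of 1.35 to 70.0, from 7 UMIs against 2. Bmp4 missed the threshold in fibroblast-like cells (log2 fold change -1.40, SE 0.51, adjusted p = 0.0531) and passed it without replicate 1 (-1.56, adjusted p = 0.00262). The fibroblast gate rests on 42, 34 and 45 cells. CAR markers summed to between 21085 and 22536 CPM in the CAR gate and to at most 312 CPM in the osteoblast, tendon and fibroblast gates; how far carry-over of CAR RNA adds to member levels there was not tested.

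**Figure D2:**
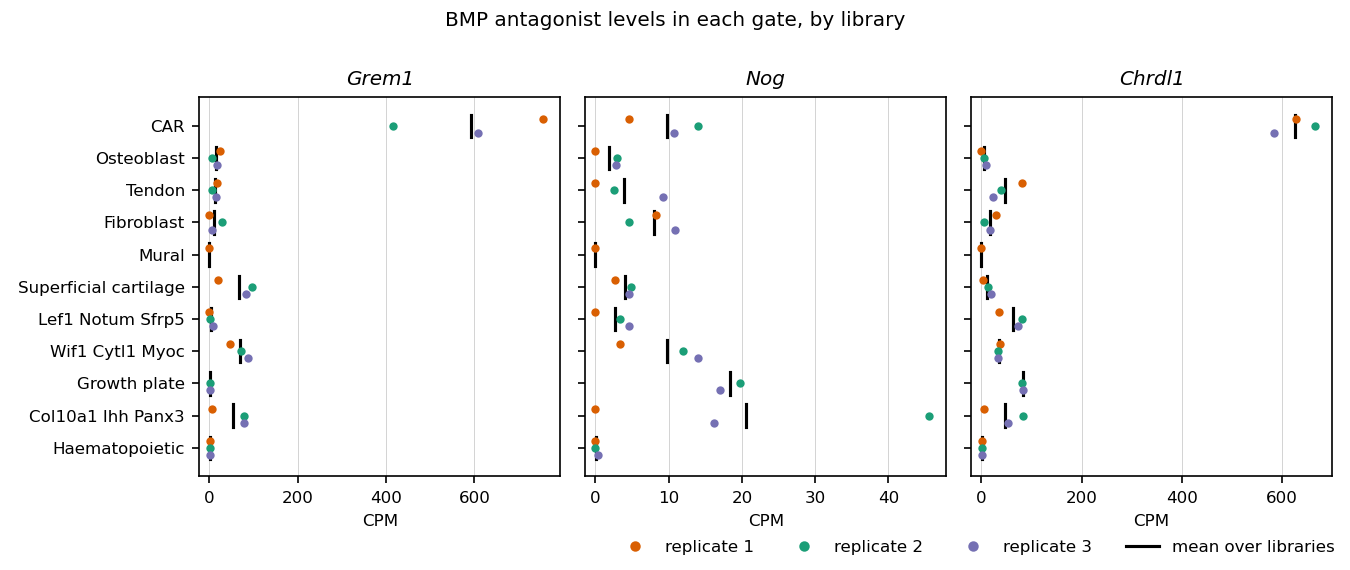
Levels of Grem1, Nog and Chrdl1 in CPM (horizontal axis, linear and starting at 0, a scale per gene) by gate (vertical axis), with 1 point per library and a line at the mean. The CAR points for Grem1, 416 to 756 CPM, and for Chrdl1, 583 to 666 CPM, lie clear of all other gates, while Nog is highest in the growth plate and Col10a1 gates.

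In cartilage the pattern turned over: growth plate chondrocyte-like cells held Bmp7, Nog and some Chrdl1 and little Bmp2, Bmp4 or Grem1. Bmp5 (90.3 ± 11.3 CPM) and Bmp6 (69.1 ± 13.8 CPM) were in this gate too, with higher means in other gates. Bmp7 was at 78.9 and 98.7 CPM in replicates 2 and 3 (88.8 ± 14.0, n = 2), and this gate held a mean 72.0% of all Bmp7 UMIs of its libraries. A Bmp7 UMI was found in 60.5% ± 5.96 of the growth plate cells, 15.8% ± 2.47 after thinning, in cells of high depth (medians 18574 and 10372 UMIs). For scale, the gate held 29826843 and 18940555 UMIs of all genes. Replicates 2 and 3 held 79905165 and 69890252 UMIs before cells were dropped. The Lef1 gate, at 57.0, 94.6 and 83.6 CPM, overlapped the growth plate for Bmp7, and the CAR gate held 2 UMIs in all.

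Nog (noggin), the antagonist needed for joint and cartilage patterning, was a low transcript everywhere. It was at 19.7 and 17.1 CPM in the growth plate gate (18.4 ± 1.88, n = 2), which held a mean 60.5% of its UMIs, and in 16.4% ± 4.77 of the cells. The Col10a1 gate had the highest mean, 20.6 CPM, but its values were 0, 45.6 and 16.2 CPM (exact Poisson 95% intervals 0 to 19.1, 36.3 to 56.6 and 9.88 to 25), with no UMI in the 27 cells of replicate 1, so the order of these 2 gates was not set by the data. All CAR values, 4.57, 14.0 and 10.7 CPM, lay below both growth plate values. Growth plate cells with both Bmp7 and Nog made up 10.6% ± 4.69, and with both Bmp7 and Chrdl1 36.5% ± 8.70.

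Superficial cartilage-like cells differed from growth plate cells in 9 of the 10 genes, 5 higher and 4 lower, where 45.4% of all genes tested were called (22.9% higher, 22.5% lower). Bmp2, a ligand with roles in chondrocyte maturation and fracture repair, was at 1845, 305 and 425 CPM against 47.9 and 52.5 CPM, so all 3 superficial values lay above the growth plate (log2 fold change 3.67, SE 0.45, adjusted p = 8.49e-08). The value of replicate 1 (5430 UMIs in 366 of 441 cells) was far above the others, and it gave the mean of 858 ± 857 CPM. Without that library the log2 fold change was 2.98 (adjusted p = 2.33e-15). The superficial gate of replicate 1 also held less of growth plate markers (0.679 CPM of Matn3 against 41.1 and 44.6) and more Prg4 (127035 CPM against 79768 and 89678), and their part in the Bmp2 value was not tested.

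Grem1 was also higher in the superficial gate than in the growth plate, where it was at 0.738 and 1.90 CPM (log2 fold change 6.04, SE 0.59, adjusted p = 1.25e-09), and so was Bmp4 (7.02, SE 0.59, adjusted p = 6.85e-11), at 14.3, 23.2 and 22 CPM. Gdf5, a ligand of the joint interzone, followed the same line, at 19.4, 6.49 and 4.80 CPM (57, 78 and 64 UMIs) against 0.671 and 0.211 CPM (log2 fold change 3.71, SE 0.49, adjusted p = 3.95e-07). The superficial gate held a mean 62.2% of the Gdf5 UMIs, yet only 4.88% ± 3.16 of its cells had one, against none of the haematopoietic cells. Bmp6 was higher by a smaller margin, 195, 115 and 123 CPM against 78.9 and 59.4 (log2 fold change 1.29, SE 0.45, adjusted p = 0.0188), and lost its call without replicate 2 (adjusted p = 0.151) or replicate 3 (adjusted p = 0.264).

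On the other side, Bmp7 (log2 fold change -3.87, SE 0.35, adjusted p = 2.5e-10), Bmp3 (-2.98, SE 0.43, adjusted p = 1.3e-06), Chrdl1 (-2.44, SE 0.37, adjusted p = 2.99e-06) and Nog (-1.75, SE 0.27, adjusted p = 3.2e-06) were lower at the surface. The Nog call was lost without replicate 3 (adjusted p = 0.18). Thus the antagonists did not move together: Grem1 was higher, and Nog and Chrdl1 were lower, in the superficial gate. Bmp5 missed the threshold, at 86.3, 98.8 and 108 CPM against 82.3 and 98.3 (log2 fold change 0.26, SE 0.23, adjusted p = 0.38); with replicates 2 and 3 alone its small difference of 0.35 passed (adjusted p = 0.0045). Bmp2 and Grem1 were found together in 11.4% ± 6.97 of superficial cells.

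Cells of the Lef1 gate differed from growth plate cells in 4 of the 10 genes, 3 higher and 1 lower, where 22.1% of all genes were called (11.2% higher, 10.9% lower). Bmp3 was higher, at 7.13 (1 UMI), 40.4 and 45.2 CPM against 3.65 and 4.54 (log2 fold change 3.27, SE 0.26, adjusted p = 1.04e-09), and Nog was lower (log2 fold change -2.31, SE 0.34, adjusted p = 1.25e-05). The calls for Bmp4 (19 UMIs against 7, adjusted p = 0.00872) and Gdf5 (log2 fold change 1.94, SE 0.68, adjusted p = 0.041) rest on few UMIs. That of Gdf5 held in 2 of 7 other settings that used every library (highest adjusted p = 0.26). Of the 3 fits that left out a library, Gdf5 was tested in none and Nog in 2. Leaving out replicate 2 took away the calls of Bmp3 (adjusted p = 0.0854) and Bmp4 (0.211), and leaving out replicate 3 those of Bmp4 (0.212) and Nog (0.15).

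The Lef1 gate also held cells with growth plate markers. In it, growth plate markers summed to 1518, 20702 and 18294 CPM, and 274 of the 1091 cells that passed its markers also passed those of the growth plate. After this had been seen, the gate was split by it: cells that passed both were in replicates 2 and 3 (130 and 141 cells) and held 16.1 and 9.91 CPM of Bmp3, against 55.3 and 61.2 CPM in the rest of the gate. Bmp7 had the opposite placing, at 135 and 126 CPM against 69.8 and 64.6 CPM. Leaving out replicate 1, which had 25 cells in this gate and no growth plate partner, brought calls for Bmp2 (log2 fold change 1.00, adjusted p = 7.17e-06), Bmp5 (0.50, adjusted p = 0.000666), Bmp6 (0.87, adjusted p = 0.00316) and Grem1 (1.67, adjusted p = 0.0151).

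**Figure D3:**
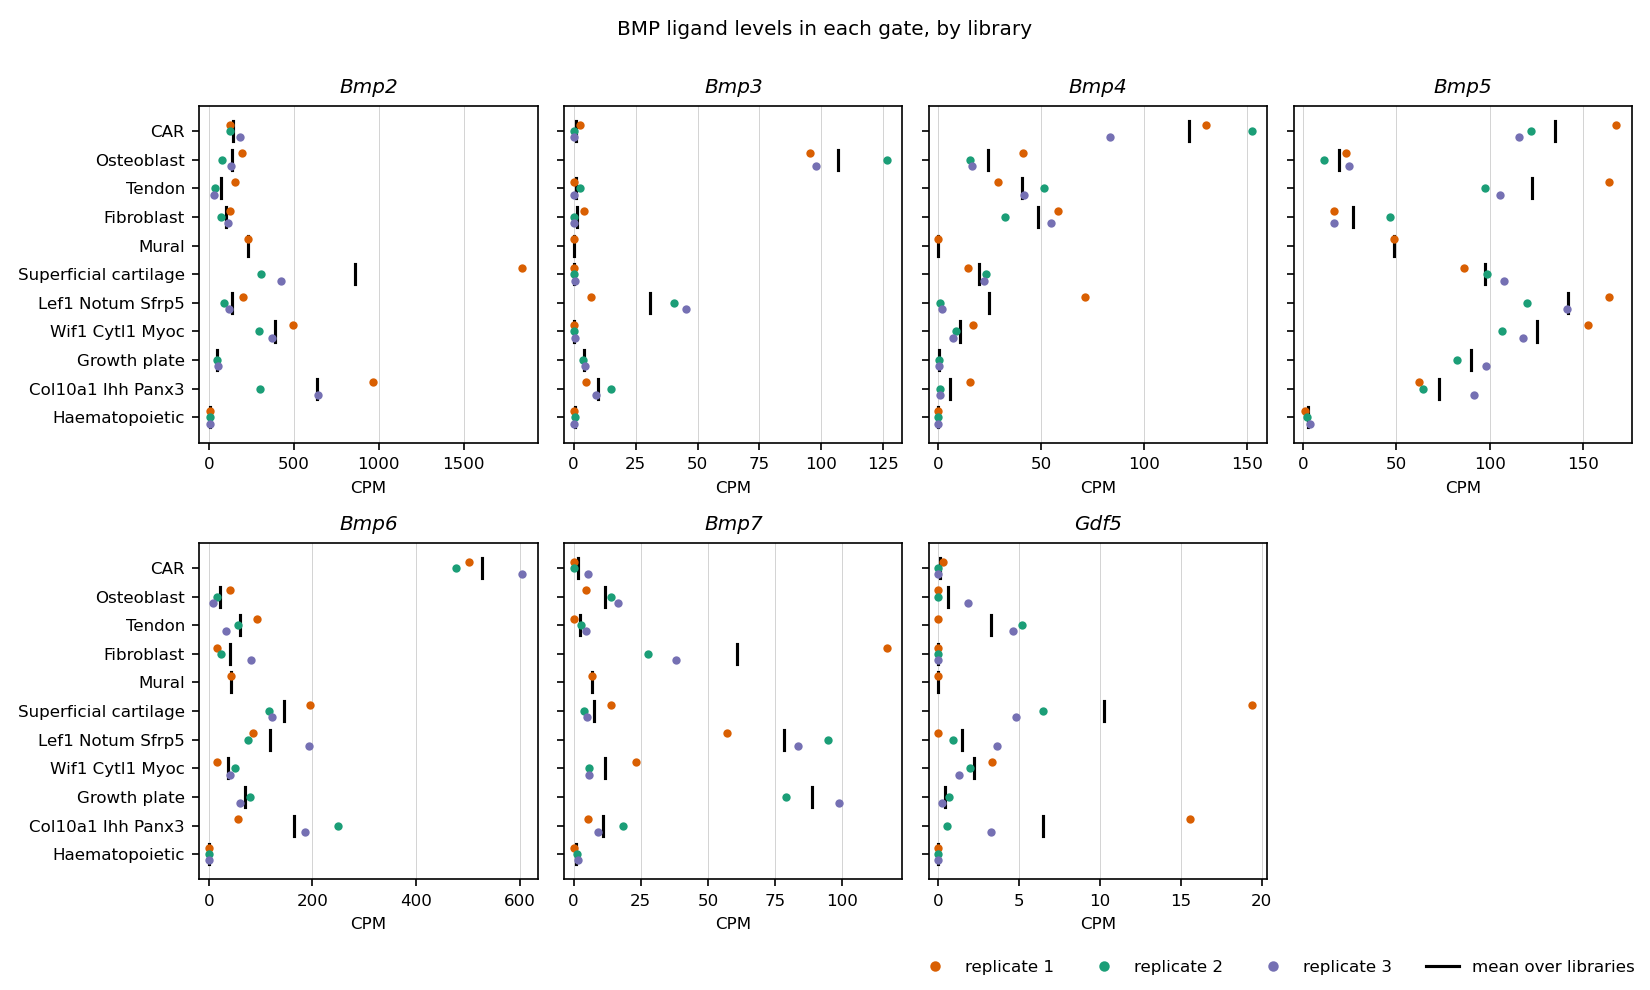
Levels of the 7 ligands in CPM (horizontal axis, linear and starting at 0, a scale per gene) by gate (vertical axis), with 1 point per library and a line at the mean. Bmp5 is spread over all mesenchymal gates, at 11 to 168 CPM, whereas Bmp3 stands out in the osteoblast gate and Bmp6 in the CAR gate, and a single superficial point at 1845 CPM sets the scale for Bmp2.

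The Col10a1 gate, whose genes are those of prehypertrophic and hypertrophic chondrocytes, differed from growth plate cells in 6 of the 10 genes, 5 higher and 1 lower, where 16.9% of all genes were called (8.08% higher, 8.82% lower). Bmp2 was at 964, 304 and 644 CPM (637 ± 330, n = 3) against 47.9 and 52.5 CPM (log2 fold change 3.28, SE 0.44, adjusted p = 2.13e-06), and its range overlapped those of the superficial gate and of the Wif1 gate (495, 296 and 374 CPM). Bmp7 was lower (log2 fold change -2.62, SE 0.41, adjusted p = 2.49e-05), and that call was lost without replicate 3 (adjusted p = 0.128). Bmp3, at 5.19, 15.0 and 8.90 CPM against 3.65 and 4.54 (adjusted p = 0.00156), and Bmp6 (log2 fold change 1.54, SE 0.45, adjusted p = 0.0156) were higher, but both calls were lost without replicate 2 (adjusted p = 0.578 and 0.417) and without replicate 3 (0.131 and 0.473). Nog was called higher (0.90, SE 0.29, adjusted p = 0.0277) although it was above the growth plate level in replicate 2 and below it in replicate 3. Without replicate 3 the Nog call was lost (adjusted p = 0.634), as it was without the library block (adjusted p = 0.257), where Bmp6 lost its call too (adjusted p = 0.063). In all, Nog was called in 3 of 7 other settings that used every library.

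The Col10a1 gate was not of one kind. Of the 371 cells that passed its markers, 117 also passed the superficial and 181 the Wif1 markers, and superficial markers summed to between 23974 and 51557 CPM in it, against 243 to 429 CPM in the growth plate gate. After these overlaps had been seen, its cells were split into those that passed neither of those gates (11, 63 and 70 cells) and those that also passed one (16, 75 and 103 cells). The first held Ihh (112 ± 64.8 CPM against 16.3 ± 9.75) and Panx3 (243 ± 117 against 2.20 ± 3.82), and the second Prg4. Grem1 was in the second, at 107 ± 88.6 CPM, and was nearly absent from the first, at 4.81 ± 7.51. Bmp3 (18.6 ± 7.60 against 0.465 ± 0.806 CPM) and Bmp7 (18.9 ± 10.4 against 1.84 ± 2.14) had the opposite placing, and Bmp2 was high in both (753 ± 438 and 543 ± 229). With the first set of cells alone, Grem1 no longer differed from the growth plate past the threshold (log2 fold change 2.12, adjusted p = 0.341, against 5.97 with an SE of 0.61 and adjusted p = 2.3e-08 for the whole gate).

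**Figure D4:**
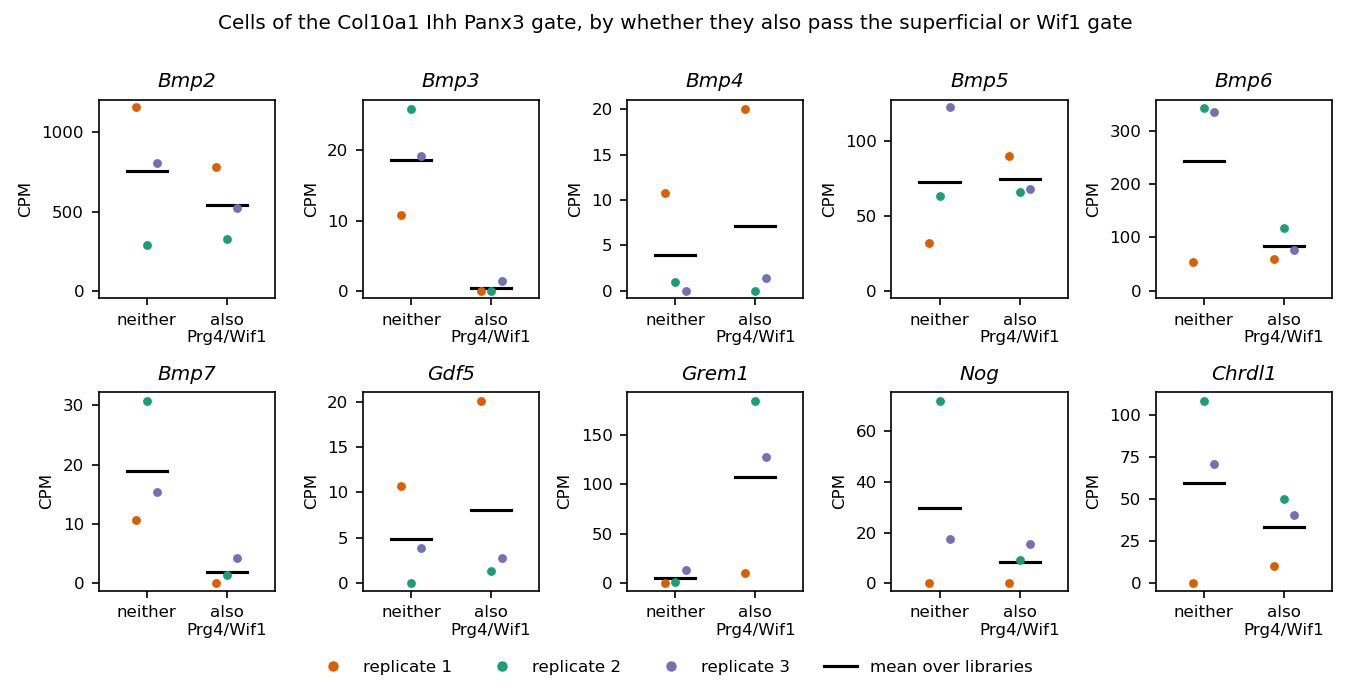
Member levels in CPM (vertical axes, linear, a scale per gene) in cells of the Col10a1 gate that passed neither the superficial nor the Wif1 markers and in those that also passed one of them (horizontal axis), with 1 point per library and a line at the mean. Bmp3 and Bmp7 lie higher on the left in all 3 libraries and Grem1 on the right, where its points run from 10.0 to 184 CPM. In replicate 1 each of these 3 differences is 1 UMI against 0.

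Set against osteoblast-like cells, the Col10a1 gate gave calls for 8 of the 10 genes, 6 higher and 2 lower, where 29.4% of all genes were called (13.9% higher, 15.5% lower). Both gates hold genes of mineralising tissue, yet they differed in Bmp2 (log2 fold change 2.16, SE 0.37, adjusted p = 4.1e-05), Bmp5 (2.00, SE 0.31, adjusted p = 8.18e-06), Bmp6 (3.48, SE 0.54, adjusted p = 1.06e-05) and Nog (3.42, SE 0.54, adjusted p = 1.48e-05), all higher in the Col10a1 gate. The Nog call rests on 102 UMIs against 7, with 82 of the 102 in replicate 2 and 0 in both gates of replicate 1. Nog was tested in only 2 of the 3 fits that left out a library, and was called in both. Bmp3 was lower (-3.29, SE 0.31, adjusted p = 2.71e-09). The calls for Bmp4 (-3.55, SE 0.94, adjusted p = 0.00455), Chrdl1 (3.29, SE 0.58, adjusted p = 6.63e-05) and Grem1 (2.43, SE 0.61, adjusted p = 0.00302) were less firm. Without replicate 2 all 3 were lost (adjusted p = 0.186, 0.0733 and 0.162), and without replicate 3 those of Bmp4 (0.165) and Grem1 (0.094). Grem1 turned to -1.32 (adjusted p = 0.364) once cells that also passed the superficial or Wif1 markers were set aside. Bmp7 was at 5.19, 18.3 and 8.90 CPM against 4.55, 13.9 and 16.5 (log2 fold change -0.06, SE 0.57, adjusted p = 0.961).

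Bmp5, the ligand mutated in short ear mice, was the least selective. Its highest mean was in the Lef1 gate, at 164, 120 and 142 CPM (142 ± 21.9), and the ranges of the next gates in the order, CAR, Wif1, tendon and superficial, each overlapped the one before. It was called lower than in CAR-like cells in the osteoblast and fibroblast gates, and not in the tendon gate. In those 2 gates it was at 22.7, 11 and 24.7 CPM and at 16.7, 46.5 and 16.3 CPM. Haematopoietic cells were at 1.17, 2.17 and 3.95 CPM.

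**Figure D5:**
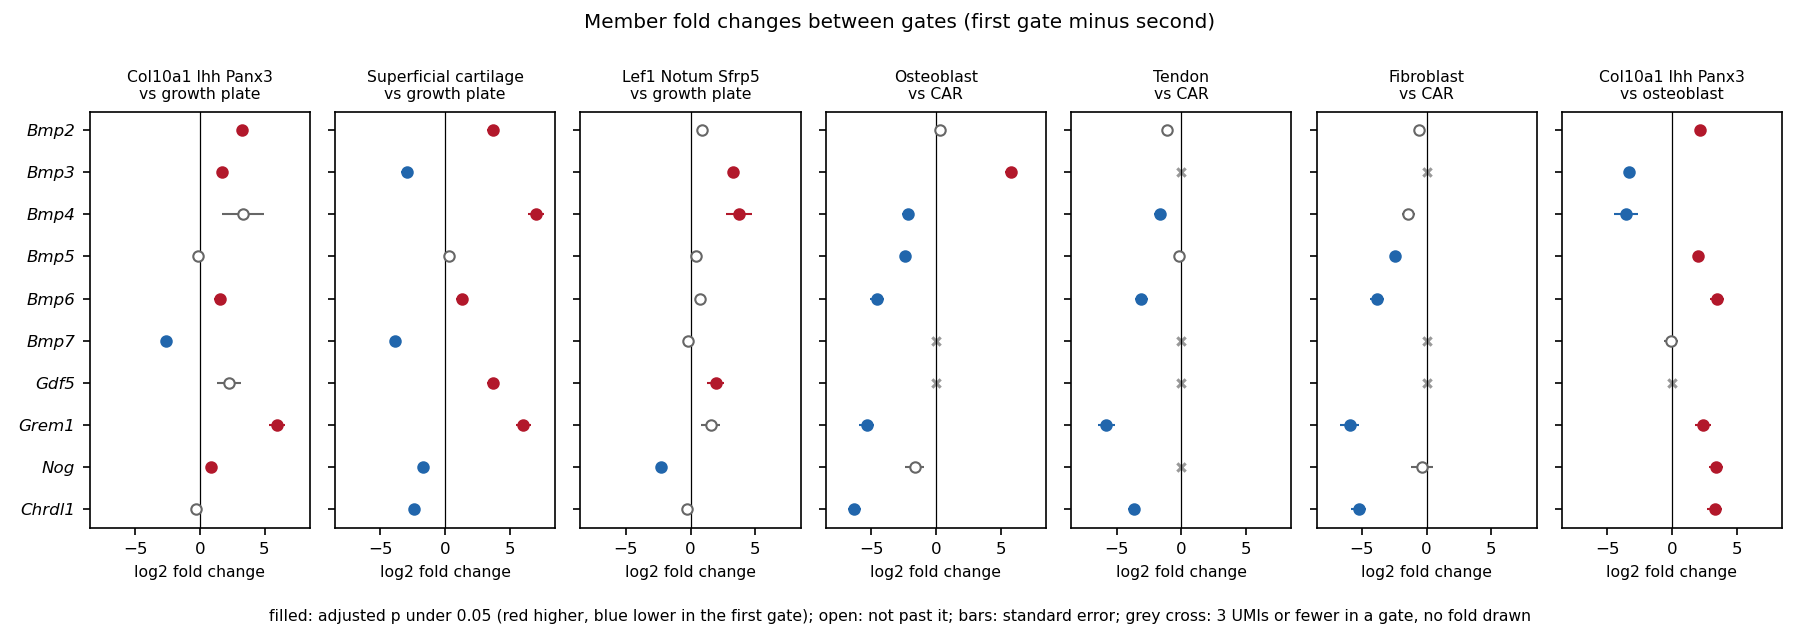
Log2 fold changes of the 10 genes (horizontal axis) in the 7 comparisons, first gate minus second, with the standard error as bars; filled points had an adjusted p under 0.05, open points did not, and a cross stands where a gate held 3 UMIs or fewer. Grem1 and Chrdl1 lie far to the left in the 3 comparisons with the CAR gate, at -3.67 or below, and Bmp7 lies to the left in the superficial and Col10a1 gates against the growth plate.

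Over all 10 genes the median log2 fold change was -1.89, -1.46 and -1.80 for the osteoblast, tendon and fibroblast gates against the CAR gate, where the median of all genes was 0.00, -0.12 and -0.13. These medians include folds from 3 UMIs or fewer in a gate, as for Gdf5 (2, 3 and 0 UMIs against 1). The fibroblast median lies between the folds of Gdf5 (-2.20) and Bmp4 (-1.40). The tendon median lies between those of Bmp3 (-1.30, from 1 UMI against 9) and Bmp4 (-1.62). Against the growth plate the medians were 1.64 for the Col10a1 gate, 0.78 for the superficial gate and 0.83 for the Lef1 gate, and for the Col10a1 gate against the osteoblast gate 2.08, where those of all genes were -0.06, 0.01, -0.03 and -0.01. The 3 comparisons with CAR-like cells share those sums, as the 3 with the growth plate share theirs, so they are not independent of each other. Every one of the 10 genes passed the filter on low counts.

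Other genes of the pathway were read from a list of 44, of which 37 were tested; Bmp8b, Bmp10, Gdf2, Gdf6, Gdf7, Sost and Sostdc1 fell under the filter. In the superficial gate against the growth plate, where 22.9% of all genes were higher and 22.5% lower, 7 of 10 other antagonists and modulators were higher and 2 lower, 7 of 10 receptors and co-receptors were higher and none lower, and 7 of 9 targets were higher and 1 lower. Chrdl2, a relative of chordin, was at a mean 87.2 against 1.12 CPM (log2 fold change 6.23, adjusted p = 1.03e-13). The decoy receptor Bambi was at 134 against 25.7 CPM (2.73, adjusted p = 3.75e-11) and the inhibitory Smad6 at 17.4 against 2.41 CPM (3.10, adjusted p = 5.19e-11), while the ligand Bmp8a was lower, at 6.19 against 55.1 CPM (-3.01, adjusted p = 3.24e-11).

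The Col10a1 gate shared part of this against the growth plate, with Chrdl2 at 92.1 CPM (log2 fold change 5.95, adjusted p = 4.29e-12) and Bambi at 130 CPM (2.63, adjusted p = 1.2e-09). Beside 8.08% of all genes higher and 8.82% lower, 2 of 10 antagonists were higher and 1 lower, 3 of 10 receptors were higher, and 4 of 9 targets were higher and 2 lower. In the Lef1 gate, where 11.2% of all genes were higher and 10.9% lower, 3 of 10 antagonists were higher and none lower, among them Nbl1 at 88.8 against 15.0 CPM (2.16, adjusted p = 0.000109), and 4 of 10 receptors were higher. Against osteoblast-like cells the Col10a1 gate had 2 of 10 antagonists higher and 2 lower, beside 13.9% and 15.5% of all genes, with Nbl1 lower at 29.3 against 261 CPM (-3.32, adjusted p = 1.49e-07). The target Id3 was lower there as well, at 206 against 714 CPM (-1.80, adjusted p = 7.24e-05).

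Around the CAR gate the antagonists split. In osteoblast-like cells 2 of 10 were higher and 5 lower, beside 14.3% and 13.2% of all genes: the follistatin-like Fstl1 was at 46.6 against 1430 CPM (log2 fold change -4.74, adjusted p = 1.44e-12), but Nbl1, a gremlin relative, was at 261 against 18.4 CPM (4.30, adjusted p = 2.41e-09). In tendon-like cells 4 were higher and 4 lower, beside 9.07% and 11.2% of all genes, with Nbl1 at 370 CPM (4.52, adjusted p = 1.84e-09) and the activin and BMP antagonist Fst at 49.4 against 495 CPM (-3.37, adjusted p = 1.6e-05). Fibroblast-like cells had 2 higher and 4 lower, beside 8.2% and 10.1% of all genes, with Nbl1 at 763 CPM (5.50, adjusted p = 6.03e-11) and Fst at 16 CPM (-5.19, adjusted p = 2.42e-06). Id4, a target, was at 203 CPM in the CAR gate and lower in all 3, at 16.9, 15.9 and 44.1 CPM (adjusted p = 4.06e-09, 1.13e-08 and 1.13e-05).

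The rest of the list moved in smaller numbers, many of them near the share of all genes called, which was 27.5% for osteoblast, 20.2% for tendon and 18.3% for fibroblast against CAR. It was 45.4%, 16.9% and 22.1% for the superficial, Col10a1 and Lef1 gates against the growth plate and 29.4% for Col10a1 against osteoblast. Of 10 receptors and co-receptors, 1 was higher and 3 lower in the osteoblast gate than in the CAR gate, 2 higher and 1 lower in the tendon gate, and 3 higher and 1 lower in the fibroblast gate. Of 6 Smad transducers, 3 were higher in the osteoblast gate, and 2 were lower in each of the tendon and fibroblast gates. Of 9 targets, 1 was higher and 2 lower in osteoblast-like cells, and 2 were higher and 2 lower in tendon-like and in fibroblast-like cells. The receptor Acvr2a was lower in all 3, at 24.1, 38.7 and 58.8 CPM against 168 CPM (adjusted p = 1.68e-08, 2.35e-07 and 4.16e-05). Of the 2 other ligands tested, Bmp8a was higher in osteoblast-like cells, at 138 against 20.0 CPM (log2 fold change 3.01, adjusted p = 2.68e-09). Against the growth plate, 2 transducers were higher and 2 lower in the superficial gate, 2 were higher in the Col10a1 gate, and 1 was higher and 1 lower in the Lef1 gate, where both other ligands were lower. The Lef1 gate also had 2 targets higher and 2 lower, with Hey1 at 0.915 against 8.90 CPM (-2.70, adjusted p = 4.72e-05). Against osteoblast-like cells, the Col10a1 gate had 2 receptors higher and 3 lower, 2 transducers lower, and 3 targets higher and 2 lower.

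Genes whose levels ran most like those of the antagonists over all 36 sums of a gate and a library were Ccl19 (Pearson r = 0.879 on log2(CPM + 10)) and Eva1a (0.872) for Grem1, Rspo3 (0.883) and Apoe (0.838) for Chrdl1, and Ppib (0.814) and Matn1 (0.781) for Nog. For the ligands they were Spsb1 (0.805) for Bmp6, Spry1 (0.831) for Bmp4, Grrp1 (0.869) for Bmp3, Efnb2 (0.803) for Bmp7, Rin2 for both Bmp2 (0.840) and Bmp5 (0.900), and Serpina1e (0.787) for Gdf5. Sums of 1 library share its depth and its cells share their gate, so these are descriptions of which genes have a like pattern, each among the 2 highest of 8505 genes.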

How the data were processed

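Single-cell RNA was measured in 3 libraries of Alcam+Sca-1- BLCs (10x 3′ v3.1). The authors deposited UMI counts per gene and cell barcode, made per the labels with Cell Ranger 7.1.0 on mm10; whether barcodes were filtered further is not given in the sources used here. The 10 genes, the marker lists and the pathway list were chosen with earlier results of these data known. Of 20307 barcodes, any with under 200 genes or over 20% mitochondrial UMIs was dropped; doublets were scored with Scrublet, whose automatic threshold marked 42, 3 and 0 cells, so the top 0.8% per 1000 cells were removed (51, 362 and 837), leaving 18232 cells. A cell passed a gate when the mean of its markers' log2(UMIs per 10000 + 1) reached a level set per gate (0.75 to 4.25) and at least 2 markers were present. Cells that passed 2 non-cartilage gates, a cartilage and a non-cartilage gate, or the growth plate with the superficial or Wif1 gate were left out; otherwise a cell in several cartilage gates went to the first of Col10a1, Lef1, superficial, Wif1 and growth plate, so that Wif1 holds no superficial cell (2978 of 4643 cells that passed the superficial markers also passed those of Wif1). UMIs were summed per gate and library for gates of at least 10 cells.

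Total counts were 20985636, 79905165 and 69890252 UMIs. CPM have exact Poisson intervals and shares exact binomial ones (95%), which cover counting error only. Differences were tested with edgeR's quasi-likelihood test (edgeR 4.0.16, R 4.3.3; TMM, filterByExpr) in 1 fit of 27 sums of the mesenchymal gates with library as a block (15 residual degrees of freedom) and Benjamini-Hochberg adjustment over 13959 genes; adjusted p-values in the text are from this fit or the named alternative. The block follows from the design, since gates are cells of the same libraries; over 28 pairs of gates, deviations of same-numbered libraries correlated at 0.0954 to 0.408 (median 0.215). The labels do not say whether libraries came from separate mice, so p-values measure the spread between libraries, which may be technical. All 10 members were named; other pathway genes, at most 6 for each comparison by lowest adjusted p; and for likeness the 2 genes with the highest correlation among those with at least 50 CPM in a sum. GC, CCAAT and TATA boxes were added after a first motif search. On simulated counts for tendon against CAR (13959 genes, 50 changed at each size), the fit called 98% of genes raised and 60% of those lowered by 2 on the log2 scale, 22% and 20% at 1, and 1 of 13759 unchanged genes. Python 3.11.15, scanpy 1.11.5, SciPy 1.17.1, DESeq2 1.42.0 (as an alternative) and limma 3.58.1 were used.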

Additional observations from a re-analysis of the deposited data

Results flagged for a closer look

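Several gates were part of no comparison, and member levels there lay above the upper bound of the 95% counting interval in haematopoietic cells, which was at most 13.3 CPM for Bmp2, 2.61 for Bmp3, 1.33 for Bmp4, 7.07 for Bmp5, 2.60 for Bmp6, 3.70 for Grem1, 2.00 for Nog and 4.19 for Chrdl1; in erythroid cells alone it reached 32.4 CPM for Bmp2. In the Wif1 gate (55, 675 and 1156 cells) the means over libraries were 388 CPM for Bmp2, 10.7 for Bmp4, 126 for Bmp5, 36.0 for Bmp6, 68.0 for Grem1 and 34.2 for Chrdl1. In the mural gate, 56 cells of replicate 1 alone, Bmp2 was at 231 CPM, Bmp5 at 49.0 and Bmp6 at 42.0. Cells that passed no gate (747, 1298 and 2017) held means of 206 CPM for Bmp2, 13.3 for Bmp3, 8.0 for Bmp4, 94.1 for Bmp5, 103 for Bmp6, 26.4 for Grem1, 4.48 for Nog and 37.9 for Chrdl1.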

How the results depend on the processing

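Of 60 member differences followed, 41 were past the threshold, and 1 of the 41 changed sign. Of the 41, 33 kept their call in every planned setting that used all libraries. Of the 33, 24 also kept it in each fit that left out 1 library and tested the gene. Nog was tested in only 2 such fits for a comparison. Gdf5 was in no such fit, so its superficial call is not among the 24. The number of genes called moved widely where a library was left out: it ran from 219 to 3751 for the Col10a1 gate against the growth plate, 1047 to 8071 for the superficial gate, 31 to 5528 for the Lef1 gate, 1507 to 4005 for osteoblast against CAR, 1194 to 2588 for tendon, 1110 to 2318 for fibroblast and 1104 to 5256 for Col10a1 against osteoblast, where the full fit called 2359, 6338, 3081, 3837, 2825, 2550 and 4103. Members called ran from 2 to 6, 0 to 7 and 4 to 8 for the Col10a1 and Lef1 gates against the growth plate and for Col10a1 against osteoblast. Stricter gates, which left 4, 34 and 19 Col10a1 cells, called 564 genes in the first comparison, and Col10a1 cells outside the superficial and Wif1 gates (chosen after seeing the data) called 855. With stricter gates the level of Nog in the Col10a1 gate was 60.8 CPM. Without the library block the Lef1 comparison called 1684 genes, Gdf5 lost its call there (adjusted p = 0.101), as in 4 further settings, and Bmp6 in the superficial comparison (adjusted p = 0.0642). DESeq2's size factors raised the median of all genes in the Lef1 comparison by 0.10 and the share of calls that were higher from 50.8% to 62.7%. Signs turned for Chrdl1 in Col10a1 against growth plate (stricter gates 0.44, split 0.048), Bmp7 in the Lef1 comparison (stricter 0.16), Bmp6 there (-0.085 without replicate 3 to 1.34 without replicate 2), Bmp2 in osteoblast against CAR (-0.029 without replicate 1 to 0.42 without replicate 2) and Nog in fibroblast against CAR (0.14 without the block); none of these was past the threshold. In Col10a1 against osteoblast, Bmp7 turned to 0.17 with doublets kept, 0.14 with all barcodes, 1.07 with stricter gates, between -0.65 without replicate 2 and 0.42 without replicate 3, and 0.74 in the split, and Grem1 to -2.70 (adjusted p = 0.156) and -1.32. The cause of these turns was not tested.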
